A study of Schmidtea mediterranea with 9 samples.

Results

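The transcripts described here are the 200 most abundant components with several contigs, below the very top of the expression range, in neoblasts, the sorted stem cells of the flatworm Schmidtea mediterranea. A contig is a stretch of transcript assembled from reads, and a component is the assembler's group of contigs that share sequence, the unit closest to a gene. Several contigs in a component can be splice isoforms, alleles, close paralogs or alternative reconstructions of the same transcript. They were chosen by mean level. Counts were scaled to 1000000 mapped reads (CPM), leaving the most abundant component out, and all 46724 components were ranked by mean CPM over 9 libraries. The top 100 were dropped, and the next 200 of the 7189 components with at least 2 contigs were kept. They hold 906 of the 63423 contigs. The mean levels that set the ranking are therefore a description, while contig shares and differences between groups were not used in it.

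The 3 groups of 3 libraries were compared, all of poly(A) RNA from animals of the asexual strain, starved and of similar size. Cells of the anterior group came from animals decapitated 48 h earlier, and cells of the posterior group from animals that had lost tail and pharynx 48 h earlier. Cells of the 0 h control group came from animals labelled as controls at 0 h, with no wound named. The sorted cells of all groups were live, lay in the pre-pharyngeal region and held over a diploid genome's DNA, a gate known as X1. Unwounded animals were not sampled at 48 h, so a wound and the time since it cannot be told apart in a comparison with the control. Whether replicates are separate animals is not stated in the labels, and every p therefore measures only the spread between these samples, possibly a technical one. Neoblast markers could not be checked, because the identifiers were matched to no gene names, and for the same reason members are given by identifier and without a function.

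Neoblasts are the only dividing somatic cells of planarians and the source of all new tissue after amputation. A change of isoform after a wound would appear here as reads moving between the contigs of a component while the component's total stays or changes. An aligner that finds a read to match several contigs equally well has to place it by some rule, often at random, so a contig share is partly a property of the assembly. The sources used here do not give how such reads were treated, and the shares of contigs that have sequence in common are uncertain for that reason.

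Mapped reads numbered between 14674800 and 23700877 per library. Control replicate 1 had 11.4% unmapped reads, where the others had 3.96% to 5.46%. The members held between 6.26% and 7.88% of the mapped reads outside the most abundant component, or 1012644 to 1348976 reads. The thinnest count of a member in a library was 769 reads, and the median over members of the lowest library count was 3335.5 reads.

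The first member, comp268_c0, ranked 103 at 1348 CPM, and the nearest component with several contigs above the members, comp481_c0, ranked 93 at 1435 CPM. The last member, comp2356_c0, ranked 910 at 181.8 CPM, and the next below it, comp3463_c0, ranked 911 at 181.7 CPM. The median member stood at 282.8 CPM. Members had between 2 and 29 contigs, with a median of 3. Of the 200, 98 had 2 contigs, 23 had 3, 25 had 4, 36 had 5 to 9 and 18 had 10 or more. The longest contig of a member measured between 251 and 17417 bases, with a median of 2254.5. The leading contig, the one with most reads over the 9 libraries, was also the longest in 116 members.

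In 64 members (32.0%) the reads were divided evenly, with every contig within 2 percentage points of an equal part. Among the other 4454 components with several contigs that were deep enough to test, 753 (16.9%) were divided as evenly. These needed a mean of only 10 reads on the leading contig and on the rest, and were not matched to the members in depth. Counting error moves shares more at low depth, and its part in this difference was not tested. The distance of 2 points was chosen after the values were seen. At 1 point the counts were 52 members and 447 others, and at 5 points 84 members and 1204 others. The evenly divided members were mostly pairs of contigs of nearly the same length. Of the 64, 50 had 2 contigs, and the shortest contig measured a median of 97.6% of the longest (range 66.3 to 99.8%). In the remaining 136 members that median was 33.4% (range 3.71 to 98.6%).

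The member comp787_c0, with contigs of 2873 and 2822 bases, shows the even pattern. Its leading contig took 51.3, 49.5 and 50.7% of the component's reads in the anterior libraries, 48.9, 49.7 and 49.8% in the posterior libraries and 49.3, 49.9 and 50.7% in the controls. The lead changed hands within the anterior and the control group, and the other contig led in 6 of the 9 libraries. In comp1512_c0, with 4 contigs of 10248 to 10296 bases, the leading contig took 25.5, 25.9 and 24.9% in the anterior libraries, 25.5, 25.1 and 24.4% in the posterior libraries and 24.7, 24.3 and 25.4% in the controls, and another contig again led in 6 libraries. Within groups the leading share of evenly divided members varied by about as much as counting alone gives. The chi-square per degree of freedom, which is near 1 where replicates differ by counting error only, had a median of 0.987 (range 0.176 to 8.82). In the other 136 members its median was 5.21 (range 0.424 to 296). It lay under 2 in 88 of all members and over 10 in 50.

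**Figure D1:**
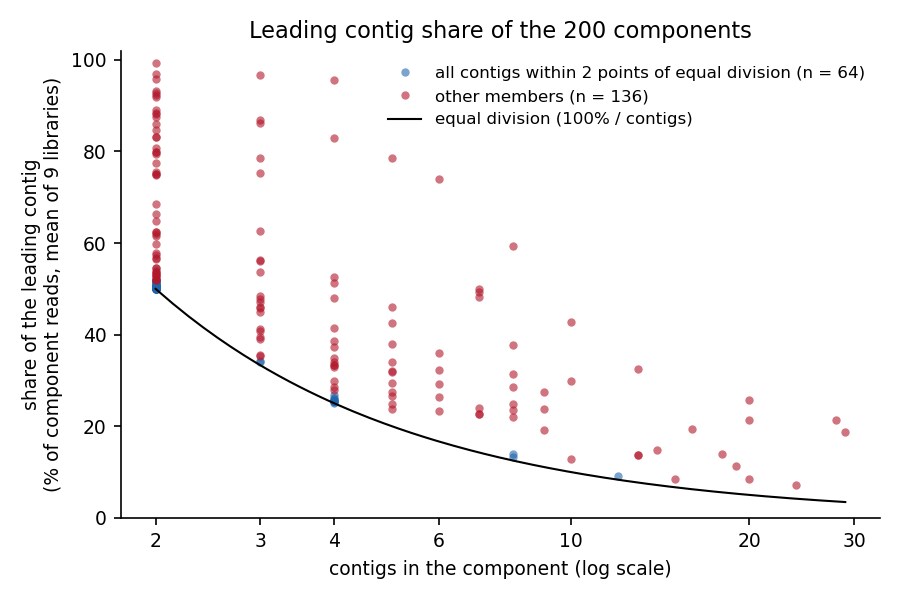
Share of a component's reads on its leading contig (y axis, percent, mean of 9 libraries) against the number of contigs (x axis, log scale), with a point for each of the 200 members and evenly divided members in a colour of their own. The 64 evenly divided members lie on or just above the curve of equal division, and 50 of them have 2 contigs.

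The 98 members with 2 contigs were described by how alike their contigs were in length. In the 56 whose shorter contig was at least 90% as long as the longer one, the longer contig held a median of 50.03% of the reads (range 11.8 to 56.7%). In the 23 whose shorter contig was between 50 and 90% as long, it held a median of 57.8% (range 46.1 to 87.6%). In the 19 whose shorter contig was under 50% as long, it held a median of 83.1% (range 4.23 to 99.2%). If the shorter contig lay wholly within the longer one and shared reads were split equally, the share would follow from the lengths alone. The observed share lay within 5 points of that value in 54 of the 56 members with contigs of nearly equal length, where the value is close to an even split. It did so in 8 of the 23 members of the middle class, 6 being higher and 9 lower by more than that. In the class with the shortest companions it did so in 11 of 19, with 3 higher and 5 lower. The highest leading share was that of comp755_c0, whose contig of 1074 bases took 99.4, 99.2 and 99.3% in the anterior libraries, 99.0, 99.3 and 99.1% in the posterior libraries and 99.4, 99.4 and 99.2% in the controls, against a companion of 357 bases. The next was comp5337_c0, with contigs of 5674 and 409 bases and a leading share between 95.3 and 98.2%. At the other end, comp3228_c0, with 24 contigs, had a leading share between 5.50 and 9.22%, and comp3263_c0, with 15, had one between 7.77 and 9.22%. The members with most contigs, comp291_c1 with 29 and comp989_c0 with 28, had leading shares of 15.7 to 22.2% and 15.3 to 28.9%.

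**Figure D2:**
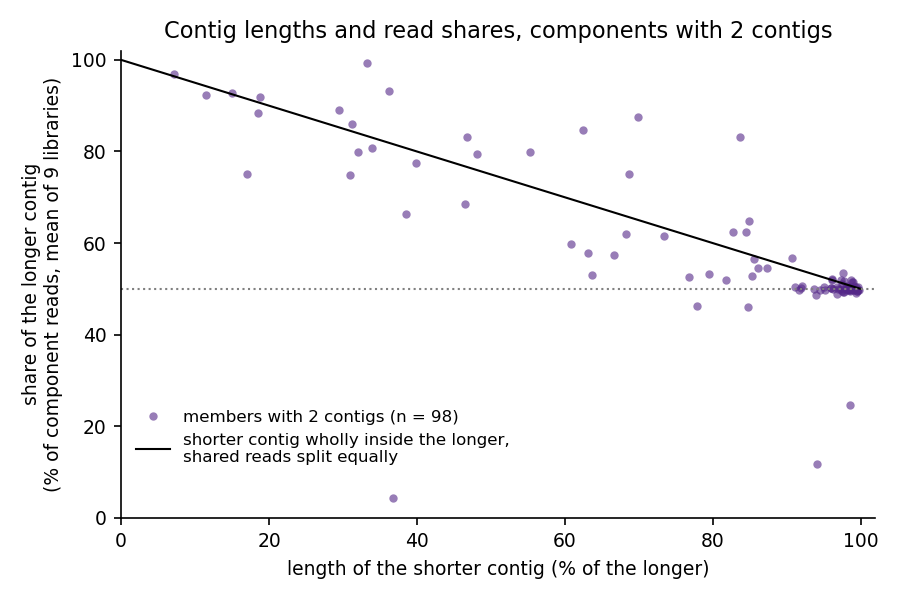
Share of reads on the longer contig (y axis, percent, mean of 9 libraries) against the length of the shorter contig as a percentage of the longer (x axis) for the 98 members with 2 contigs. The line marks the share expected if the shorter contig lay inside the longer and shared reads were split equally, and 54 of the 56 members with contigs at least 90% alike in length lie within 5 points of it, against 8 of 23 between 50 and 90% and 11 of 19 under 50%.

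Between the libraries of a group, the leading share of a member varied by a median SD of 0.962 points. The SD was under 1 point in 104 members and over 5 points in 5. The widest ranges were those of comp6658_c0 and comp1935_c1, and in both the extremes were replicates of the same group. In comp6658_c0, with 8 contigs, the leading contig is the shortest, at 2881 bases. It took 65.0, 59.6 and 55.4% of the reads in the anterior libraries, 55.7, 41.7 and 82.7% in the posterior libraries and 50.1, 48.9 and 74.3% in the controls. The groups overlapped throughout, and posterior replicates 2 and 3 marked the lowest and the highest value. In comp1935_c1, with 7 contigs, the leading contig of 2150 bases took 56.5, 48.2 and 45.4% in the anterior libraries, 45.4, 32.8 and 72.3% in the posterior libraries and 44.5, 39.0 and 60.1% in the controls. The same posterior libraries were again lowest and highest.

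The long contigs of these members moved the other way. As the shares of a component add up to the whole, its other contigs together had to move against the leading one. A length cut was taken for each member separately. The 4 contigs of comp6658_c0 over 9000 bases together held 27.1, 31.2 and 35.6% in the anterior libraries, 35.2, 45.9 and 13.5% in the posterior libraries and 39.1, 40.4 and 20.04% in the controls. The 3 contigs of comp1935_c1 over 4000 bases held 35.8, 44.5 and 45.7% in the anterior libraries, 45.3, 57.4 and 20.9% in the posterior libraries and 47.9, 53.0 and 29.4% in the controls. Posterior replicate 3, control replicate 3 and anterior replicate 1 were the 3 lowest libraries in both members, and posterior replicate 2 with control replicates 1 and 2 the 3 highest. The members comp3697_c0 and comp1480_c0, chosen after their values were seen, had the same libraries at their ends. The 17417-base contig of comp3697_c0, the longest of any member, held 1.06, 3.72 and 5.04% in the anterior libraries, 2.605, 6.81 and 0.816% in the posterior libraries and 8.43, 8.32 and 1.30% in the controls, the rest falling on a contig of 6396 bases. The 2 contigs of comp1480_c0 over 2000 bases held 9.08, 13.1 and 13.4% in the anterior libraries, 11.2, 15.5 and 5.06% in the posterior libraries and 21.2, 19.2 and 11.1% in the controls.

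**Figure D3:**
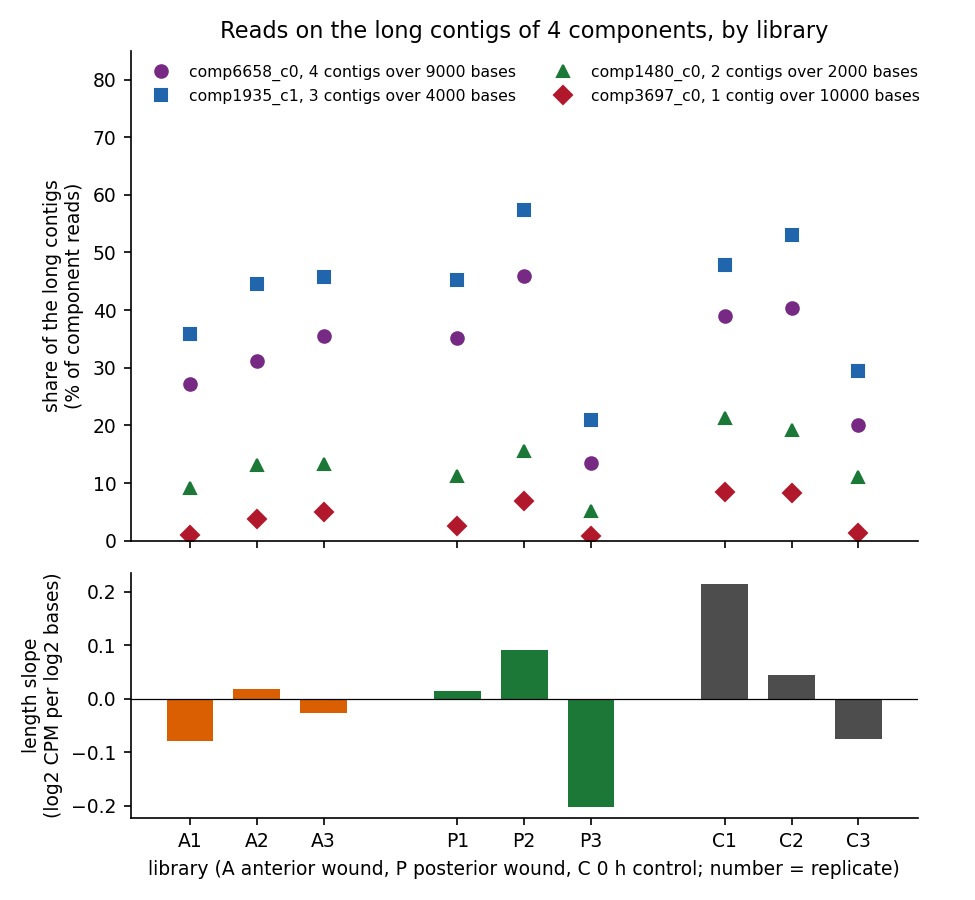
The upper panel shows the share of reads on the long contigs of 4 members (y axis, percent, a symbol per member) in each library, with the anterior libraries left, the posterior libraries in the middle and the 0 h controls right, and the lower panel shows the length slope of each library over components of 1 contig (bars, log2 CPM per log2 bases). The slope was fitted to deviations of log2 CPM from the component's mean over the libraries. Posterior replicate 3 has the lowest share in all 4 members, at 13.5, 20.9, 5.06 and 0.816%, and the lowest slope, at -0.202.

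A measure from other transcripts moved with these shares. For 3847 components of 1 contig with a mean of at least 20 CPM, each log2 level was taken as its deviation from the component's mean over 9 libraries. The slope of these deviations on log2 length was -0.0796, 0.0179 and -0.0261 in the anterior libraries, 0.0139, 0.0915 and -0.202 in the posterior libraries and 0.214, 0.0449 and -0.0747 in the controls. A negative slope means that long transcripts, relative to short ones, were lower in that library than in the mean of the 9 libraries. The 3 lowest slopes belonged to posterior replicate 3, anterior replicate 1 and control replicate 3, the libraries with least reads on the long contigs above. The slope averaged -0.029 ± 0.049 in the anterior group, -0.032 ± 0.15 in the posterior group and 0.061 ± 0.15 in the controls (SD, n = 3 each), so the spread within the posterior and the control group exceeded the distance between any pair of group means. In 119 members the shortest contig was under 80% as long as the longest. In 43 of these the mean contig length per read was lower in each of the 3 libraries of lowest slope than in each of the 3 of highest slope, and in 12 it was higher. Posterior replicate 3 had the lowest mean length of all libraries in 56 of the 119 and the highest in 21. Posterior replicate 2 had the highest in 37 and the lowest in 23. What part the length dependence has in the contig shares was not tested. With the slope as a term in the edgeR fit 0 members were called in each comparison, the same as without it. At an unadjusted p under 0.05 that fit had 5 members (2.5%) for anterior against control, against 2.97% of all components. For posterior against control it had 6 (3.0%, against 4.25%), and for anterior against posterior 3 (1.5%, against 3.57%).

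Deviations of the log2 odds of the leading contig from the member's mean over 9 libraries fell mainly along a single axis. It held 70.1% of their variance, and 65.7% without the 10 members of widest range in percentage points. That check kept comp3697_c0, with a range of 7.61 points, whose long contig went from 0.816 to 8.43%. Members with large deviations weigh most in such an axis. In posterior replicate 3 the median size of a deviation was 0.0695, against an SD over members of 0.353. Whether the axis holds for most members was not tested. The scores on it were 0.277, -0.0454 and -0.0959 in the anterior libraries, -0.0379, -0.412 and 0.678 in the posterior libraries and -0.320, -0.321 and 0.277 in the controls. The 3 libraries at each end were the 3 at each end of the length slope. A second axis held 16.4%.

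A different set of libraries stood apart in comp672_c0, the second most abundant member. Its shortest contig, of 462 bases, held 12.3, 5.70 and 14.4% of the reads in the anterior libraries, 15.3, 15.4 and 12.9% in the posterior libraries and 3.47, 5.36 and 15.1% in the controls. In CPM this contig stood at 147, 65.9 and 159 in the anterior libraries, 210, 219 and 146 in the posterior libraries and 41.6, 52.7 and 165 in the controls. Control replicates 1 and 2 and anterior replicate 2 were low, while control replicate 3 was among the posterior libraries. The leading contig of 1531 bases took 77.8, 83.2 and 74.8% in the anterior libraries, 73.9, 73.2 and 78.2% in the posterior libraries and 88.5, 82.98 and 74.6% in the controls. The posterior group averaged 75.1 ± 2.73% and the control group 82.0 ± 7.00% (SD, n = 3 each). The log2 odds of the leading contig differed by -0.66 (SE 0.30, edgeR's quasi-likelihood test, adjusted p = 1.00).

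The same 3 libraries were the lowest in the leading contig of comp835_c0 and the highest in that of comp547_c0. In comp835_c0, whose 3 contigs measure 404 to 425 bases, that share was 36.8, 34.5 and 37.0% in the anterior libraries, 36.7, 38.3 and 38.8% in the posterior libraries and 26.8, 32.0 and 37.2% in the controls. In comp547_c0, with 20 contigs, the leading contig of 280 bases took 25.6, 28.1 and 23.8% in the anterior libraries, 22.8, 22.5 and 23.8% in the posterior libraries and 31.4, 30.3 and 23.9% in the controls. In both, control replicate 3 lay with the wounded libraries and apart from the other controls. The labels give nothing that sets these libraries apart.

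In 103 members a contig other than the leading one had most reads in at least 1 library, and 55 of these were evenly divided members, where the contigs are nearly tied. A lead of more than 5 points by another contig occurred in 6 members. The largest was 17.2 points in comp3086_c0, a member chosen after its values were seen. Its longest contig, of 2189 bases, took 24.7, 28.3 and 30.1% in the anterior libraries, 29.9, 36.8 and 13.7% in the posterior libraries and 28.1, 32.5 and 23.4% in the controls. In posterior replicate 3 another contig led with 30.9%. By group means, a contig other than the leading one had the largest share in at least 1 group in 59 members, of which 36 were evenly divided.

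The comparison of the anterior group with the 0 h control asks whether neoblasts use other contigs of these transcripts after decapitation. The leading contig was tested against the sum of the others with edgeR's quasi-likelihood test, and p was adjusted over all 4654 components with several contigs and at least 10 reads on average on each side. No member passed an adjusted p of 0.05 (0 of 200), where 0.0% of all components tested passed. At an unadjusted p under 0.05 there were 2 members, both lower in the anterior group, against 2.79% of all components. The leading share did not overlap between the groups in 16 members (8.0%), against 8.29% of all components. These counts are not above the background. The fitted change in log2 odds lay between -0.46 and 0.84 with a median of -0.01 over members, and the median was 0.00 over all components tested. Its 95% interval lay within ±0.5 in 171 members and within ±1, a 2-fold change of odds, in 192. In percentage points, 135 members differed by less than 1 point and 3 by more than 5.

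The members with the lowest p in this comparison did not pass the test. The leading contig of comp808_c0 (1976 bases, 3 contigs) took 34.6, 34.3 and 35.1% in the anterior libraries and 36.6, 36.3 and 35.6% in the controls, a log2 odds change of -0.10 (SE 0.04, edgeR adjusted p = 1.00). That of comp1520_c0 (3185 bases, 12 contigs) took 9.001, 7.89 and 8.12% in the anterior libraries and 9.29, 9.68 and 9.05% in the controls, a change of -0.18 (SE 0.08, adjusted p = 1.00). In both, the anterior libraries lay below all controls, by little. Among those with a higher share, comp1393_c0 (1893 bases, 5 contigs) had 27.9, 28.8 and 28.0% in the anterior libraries and 26.7, 27.0 and 26.7% in the controls, a change of 0.10 (SE 0.05, adjusted p = 1.00). The share of comp415_c0 (1768 bases, 5 contigs) averaged 38.2 ± 0.56% in the anterior group and 36.4 ± 0.39% in the controls (SD, n = 3 each), a change of 0.11 (SE 0.05, adjusted p = 1.00).

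For the posterior group against the same controls, which asks the same after loss of tail and pharynx, 0 members passed, against 0.0% of all components. At an unadjusted p under 0.05 there were 5 members, 2 higher and 3 lower in the posterior group, against a background of 3.87%. The leading share did not overlap in 11 members (5.5%), against 8.4%. The fitted change lay between -0.66 and 0.86, and its 95% interval lay within ±0.5 in 169 members and within ±1 in 193. There were 144 members within 1 point of the controls and 4 beyond 5 points. The lowest p was that of comp415_c0, whose share was 37.6, 39.5 and 40.0% in the posterior libraries and 36.8, 36.1 and 36.4% in the controls, all posterior libraries being above all controls. Its log2 odds change was 0.16 (SE 0.05, edgeR adjusted p = 1.00). The other members named by the lowest p were comp835_c0 (0.38, SE 0.14) with a higher share and comp547_c0 (-0.41, SE 0.13) with a lower one, both given above for control replicates 1 and 2 standing apart, each with an adjusted p of 1.00. In comp38_c0, whose contigs measure only 251 and 210 bases, the leading share was 82.7, 82.6 and 81.9% in the posterior libraries and 84.2, 84.3 and 83.2% in the controls, a change of -0.15 (SE 0.06, adjusted p = 1.00).

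Between the anterior and posterior groups, the comparison that asks whether the site of the wound matters, 0 members passed, against 0.0% of all components. At an unadjusted p under 0.05 there were 2 members, both lower in the anterior group, against a background of 2.97%. Non-overlapping shares occurred in 13 members (6.5%), against 9.48%. The fitted change lay between -0.26 and 0.30, the interval lay within ±0.5 in 173 members and within ±1 in 196, and 0 members differed by more than 5 points. The lowest p was that of comp317_c0, a short component of 3 contigs led by a contig of 556 bases. Its share was 52.7, 54.6 and 54.7% in the anterior libraries and 60.6, 58.5 and 55.4% in the posterior libraries, a log2 odds change of -0.25 (SE 0.08, edgeR adjusted p = 1.00). The anterior libraries lay below the posterior ones, the nearest by under 1 point. The share of comp1520_c0 averaged 8.34 ± 0.59% in the anterior group and 9.43 ± 0.49% in the posterior group (SD, n = 3 each), a change of -0.20 (SE 0.08, adjusted p = 1.00). Higher in the anterior group, without passing, were comp5228_c0 at 0.15 (SE 0.08) and comp456_c0 at 0.14 (SE 0.08), each with an adjusted p of 1.00. In both, libraries of the groups overlapped.

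**Figure D4:**
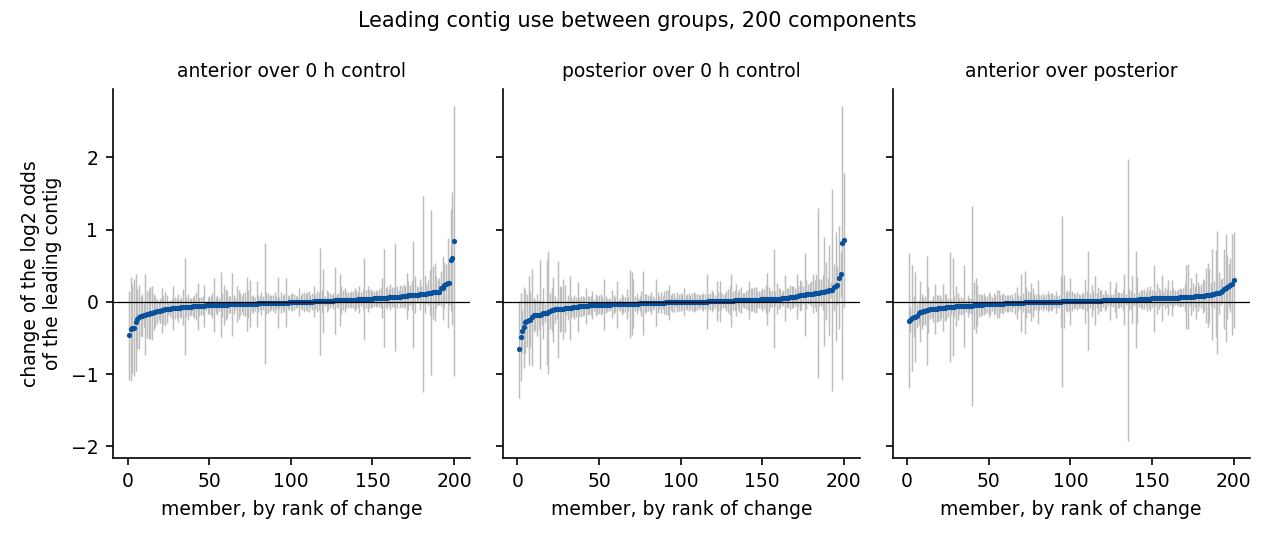
Fitted change in log2 odds of the leading contig (y axis) for the 200 members (points, with grey lines for the 95% interval), ordered by the size of the change (x axis, rank) in a panel for each of the 3 comparisons. Most points lie close to 0, the extremes over the panels are -0.66 and 0.86, and 0 members passed an adjusted p of 0.05.

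Testing each of the members' contigs against its companions with edgeR, over 14566 contigs in all, also called 0 members in each comparison. By the contig of lowest p in each component, 9, 13 and 10 members had an unadjusted p under 0.05 in the anterior, posterior and anterior-against-posterior comparisons. Those are 4.5, 6.5 and 5.0% of the members, against 5.81, 8.45 and 6.77% of all components. Limma on the log2 odds called 0 members as well, and 3, 7 and 2 members had an unadjusted p under 0.05 in the anterior, posterior and anterior-against-posterior comparisons. Those are 1.5, 3.5 and 1.0% of the members, against 2.88, 4.45 and 3.22% of all components by the same test.

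For the level of the whole component, the ratio of the highest to the lowest library had a median of 1.49 over the 200 members, exceeded 2 in 34 and exceeded 5 in 6. Control replicate 1 was the highest library for 79 members and the lowest for 42. Posterior replicate 3 was the lowest for 80 and the highest for 12, and posterior replicate 2 the highest for 70 and the lowest for 16. Control replicate 1 and posterior replicate 2 also had the highest length slopes, 0.214 and 0.0915, and posterior replicate 3 the lowest, -0.202. The slope was not a term in the level tests, and its part in the levels was not tested. The largest ratio, 16.7, was that of comp529_c0, whose level was 464, 374 and 308 CPM in the anterior libraries, 224, 571 and 826 CPM in the posterior libraries and 3734, 511 and 364 CPM in the controls. Control replicate 1 stood far above all other libraries, while the leading share of this member stayed between 31.8 and 35.4%. In comp11_c0 the level was 239, 428 and 103 CPM in the anterior libraries, 442, 758 and 331 CPM in the posterior libraries and 1072, 504 and 486 CPM in the controls. The level of comp12_c0 followed it from library to library, at between 1.06 and 1.17 times that of comp11_c0, and the leading shares of the pair moved within 39.7 to 44.1% and 45.6 to 52.0%. Whether this pair shares reads was not tested. These members were chosen after their values were seen.

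Component levels were compared with edgeR's quasi-likelihood test over 21322 components. Against the 0 h control 0 members passed in the anterior group, where 0.0281% of all components passed. At an unadjusted p under 0.05 there were 16 members (8.0%), 9 higher and 7 lower, against 3.84% of all components, and 32 members (16.0%) did not overlap, against 10.9%. The lowest p belonged to comp317_c0, at 60.7, 151 and 49.2 CPM in the anterior libraries and 438, 174 and 278 CPM in the controls, the anterior libraries being below all controls. On the log2 scale it differed by -1.73 (SE 0.45, adjusted p = 0.964). The lowest p among members with a higher level was that of comp268_c0, the most abundant member, at 1378, 1380 and 1334 CPM in the anterior libraries and 1105, 1026 and 983 CPM in the controls. The log2 difference was 0.42 (SE 0.11, adjusted p = 0.964), with the anterior libraries above all controls.

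In the posterior group 0 members passed against the same controls, where 0.0281% of all components passed. At an unadjusted p under 0.05 there were 26 members (13.0%), 12 higher and 14 lower, against 5.96%, and 32 (16.0%) did not overlap, against 10.7%. Both shares of members lay above those of all components, as in the anterior group. Members were chosen for a high mean level, however, and most of the background was not matched to them in level. Over components with at least 5 CPM in 3 libraries, the share at an unadjusted p under 0.05 by edgeR was 8.0% of members against 4.76% in the anterior group. In the posterior group it was 14.5% against 8.68%. The lowest mean level of a member was 181.8 CPM, so this background was not matched to the members either. The level of comp268_c0 was 1656, 1893 and 1375 CPM in the posterior libraries, all above the controls. The log2 difference was 0.61 (SE 0.11, adjusted p = 0.245). DESeq2 called this member, at 0.64 on the log2 scale (adjusted p = 0.0123), and no other. DESeq2 called 0.122% of all components, and 15 members had an unadjusted p under 0.05, against 2.86%. The contigs of comp268_c0 measure 1691 and 574 bases, and the leading share was 79.9 ± 4.09% in the posterior group and 81.2 ± 1.47% in the controls (SD, n = 3 each). The level of comp38_c0, chosen after its values were seen, was 389, 390 and 405 CPM in the posterior libraries and 160, 247 and 280 CPM in the controls, which is 0.75 higher on the log2 scale (SE 0.18, adjusted p = 0.426). Without control replicate 3 the test called 2 members, comp38_c0 at 0.92 (adjusted p = 0.0466) and comp4708_c0, also chosen after its values were seen, at -0.85 (adjusted p = 0.0492), where 1.29% of all components were called. The lowest p among members with a lower level was that of comp1441_c0, at 245, 245 and 237 CPM in the posterior libraries and 289, 318 and 294 CPM in the controls, a log2 difference of -0.35 (SE 0.11, adjusted p = 0.764).

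Between the wounds 0 members passed, against 0.0% of all components. At an unadjusted p under 0.05 there were 2 members against 2.72% of all components, and 21 (10.5%) did not overlap, against 11.8%. The members were comp317_c0, with 60.7, 151 and 49.2 CPM in the anterior libraries and 351, 424 and 186 CPM in the posterior libraries (log2 fold change -1.77, SE 0.45, adjusted p = 1.00), and comp1441_c0, with 290, 285 and 319 CPM in the anterior libraries and 245, 245 and 237 CPM in the posterior libraries (0.37, SE 0.11, adjusted p = 1.00). In both, the anterior and posterior libraries did not overlap. The 95% interval of the log2 fold change lay within ±1 in 190 members for the anterior group against the control, in 185 for the posterior group against the control and in 194 between the wounds.

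**Figure D5:**
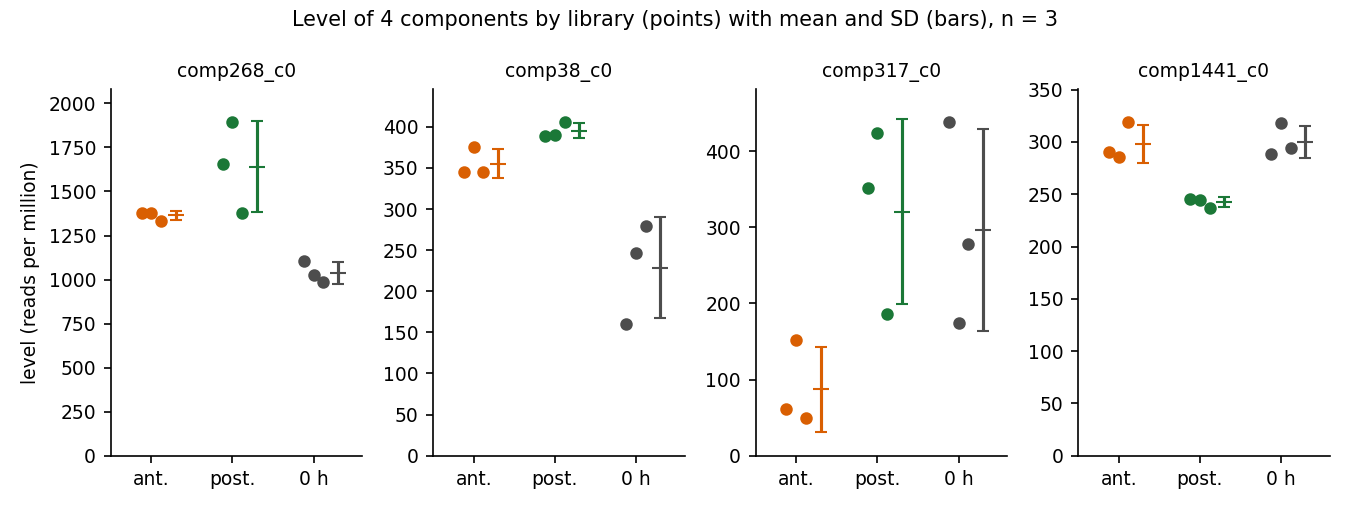
Level (y axis, CPM, from 0) of comp268_c0, comp317_c0 and comp1441_c0, named by the level comparisons, and of comp38_c0, chosen after its values were seen, in each library (points), with group means and SD (bars, n = 3), the anterior group left, the posterior group in the middle and the 0 h control right. The anterior libraries of comp317_c0 lie below the controls, and the posterior libraries of comp268_c0 above them.

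The deposited table of summed counts differs from these sums for every member. In its column for posterior replicate 3, all 200 members carry the counts of posterior replicate 2, and 0 carry those of replicate 3. All 7189 components with several contigs carry the counts of replicate 2 there. Used as deposited, the table gave 1 called member after the posterior wound, comp268_c0, with a log2 fold change of 0.75 (edgeR adjusted p = 0.0418), where 0.0371% of all components were called, and 49 members at an unadjusted p under 0.05, against 8.92% of all components. From the sums made here those counts were 0 and 26. The posterior log2 fold change of a member moved by a median of 0.096, and the sign changed in 49 members. In the authors' deposited table of comparisons, 0 members had an adjusted p under 0.05 for the anterior or the posterior wound. Whether those comparisons were made from counts with the repeated column was not tested, so the posterior ones are no independent check. The authors' deposited table gives fold changes over the control with medians of 1.02 for both wounds, between 0.258 and 1.61 for the anterior wound and between 0.280 and 1.78 for the posterior wound.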

How the data were processed

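Libraries were aligned with Bowtie2 2.0 and processed with SAMtools and DESeq, per the submitters' processing notes. The authors deposited raw read counts per contig for each library, with contig length in bases as another column, and a table of counts summed per component. Their deposited comparison table holds, per the file headers, the ratio (fold change) over the control and its p-value, raw and adjusted. Because a column of the deposited summed table repeats another, counts were summed from the per-library files. Columns without a sample or group numbered 0.

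The usage test used edgeR 4.0.16 in R 4.3.3 on leading and remaining reads, with a term per library and a leading-contig term per group in a fit of all 9 libraries. Levels used TMM scaling and filterByExpr (minimum count 10). All p-values were adjusted by Benjamini-Hochberg, with calls at 0.05. The edgeR tests were also run on counts simulated from their own model, without a length effect. Such a run cannot show how they do where that model fails. Alternatives were DESeq2 1.42.0, limma 3.58.1 with 0.5 reads added to both counts, other filters, scalings and contigs, a block for the replicate number, each library left out, and, chosen after seeing the data, the length slope as a term and each contig tested. Named by rule were the lowest p in each direction and the extremes of level, contig number, share and range, and others are said to be chosen after their values were seen. The members and lists were chosen with earlier results of these data known.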

Additional observations from a re-analysis of the deposited data

How the results depend on the processing

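Under every alternative run, the contig usage test called 0 members in each comparison, the settings that leave out 1 library included. The level comparisons of the anterior group with the control and with the posterior group also called 0 members under every alternative run. For the posterior group against the control, 0 members were called by edgeR over all 9 libraries, 1 from the deposited summed table and 1 by DESeq2, comp268_c0 both times, with log2 fold changes of 0.75 and 0.64. Leaving out 1 library gave between 0 and 2 calls there, the 2 being comp38_c0 and comp4708_c0 without control replicate 3. The median leading share by library, 49.8 to 50.2%, became 47.9 to 49.0% with reads per base and 48.3 to 49.3% with the longest contig in place of the leading one. Of the results under alternatives for the members that each comparison named by its lowest p, which for level include neither comp38_c0 nor comp4708_c0, 318 kept their direction and side of the threshold, 2 passed it anew and 0 reversed. In the order anterior against control, posterior against control and anterior against posterior, the share of members at an unadjusted p under 0.05 ranged over the alternatives for usage from 0.0 to 5.5, 1.0 to 7.5 and 0.5 to 7.5%, against 0.447 to 5.81, 1.03 to 8.51 and 0.626 to 6.77% of all components. For level it ranged from 4.5 to 20.5, 6.5 to 25.5 and 1.0 to 11%, against 1.95 to 12.3, 2.86 to 16.2 and 1.58 to 6.45%. Without control replicate 3 the level share in the posterior comparison was 25.5%, against 16.2% of all components. With a replicate block 0 members were called in usage and 0 in level, so it changed no call. The block gave 2, 7 and 2 members at an unadjusted p under 0.05 in usage (1.0, 3.5 and 1.0%, against 2.75, 4.73 and 3.12% of all components) and 16, 23 and 4 in level (8.0, 11.5 and 2.0%, against 4.43, 8.43 and 3.22%). The numbers share no stated origin, and deviations of same-numbered libraries correlated over 0.1 in 3 of 9 pairs for usage and 3 of 9 for level, while 5 of 9 libraries for usage and 4 of 9 for level correlated best with their own number. Depth limits members whose companion contigs are rare. The intervals cover only counting error and the spread within groups, estimated over all 9 libraries together.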
